A study of Homo sapiens with 18 samples.

Results

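The cytosolic ribosomal protein genes were taken from the count table by symbol: RPL or RPS followed by a number, with an A, X or L at most, together with RPLP0, RPLP1, RPLP2, RPSA and FAU, and without pseudogenes. The table holds 82 such genes among 43735 rows, 49 of the large subunit and 33 of the small subunit. The libraries came from MM1S, a human multiple myeloma line sensitive to glucocorticoids, and from MM1R, a glucocorticoid-resistant line of the same origin that lacks normal expression of the glucocorticoid receptor. In each line, cells were untreated, received 5 µM RSL3 for 3 h, or received 2 µM Fer-1 for 2 h and then 5 µM RSL3 for 3 h, which gave 6 groups of 3 libraries. RSL3 inhibits GPX4, the enzyme that detoxifies lipid peroxides, and Fer-1 (ferrostatin-1) is an inhibitor of ferroptosis. The 3 replicates are cell passages, numbered 4, 6 and 7 for MM1R and 16, 22 and 23 for MM1S, so treatments can be compared within a passage but the lines share no passage. Each line is 1 culture lineage, and p-values measure the spread between passages of that lineage. No Fer-1 library without RSL3 was analysed here.

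The cytosolic ribosome is built from a large and a small subunit, each an assembly of ribosomal RNA and of proteins needed in near-equal amounts. Most ribosomal protein mRNAs start with a cytosine followed by an unbroken run of pyrimidines, the 5′ terminal oligopyrimidine (TOP) motif, through which growth signals control their translation. Plasma cells and myeloma cells secrete or retain large amounts of immunoglobulin and depend on a high capacity for protein synthesis.

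The start regions of 9 members are shown because the results turn on these genes. RPS15, RPL13A, RPS4X, RPS19 and RPLP0 had the smallest FDR between the untreated lines, RPL10A, RPS29 and RPS12 had the 3 highest fitted values with RSL3 averaged over both lines, and RPS27L is a paralog that was also called between the lines. Each region runs from 25 bases before to 15 bases after the first base of the gene in RefSeq (GRCh38.p14). Capitals mark the longest run that begins with C, goes on with at least 4 bases that are C or T, and starts no more than 5 bases before and 10 bases after that first base, on the strand of the gene.
RPS15, chr19:1438371-1438410, plus strand: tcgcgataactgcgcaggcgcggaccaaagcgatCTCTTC
RPL13A, chr19:49487583-49487622, plus strand: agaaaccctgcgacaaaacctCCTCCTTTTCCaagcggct
RPS4X, chrX:72277234-72277273, minus strand: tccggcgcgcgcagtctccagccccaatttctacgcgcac
RPS19, chr19:41860230-41860269, plus strand: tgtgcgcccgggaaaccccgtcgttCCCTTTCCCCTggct
RPLP0, chr12:120201097-120201136, minus strand: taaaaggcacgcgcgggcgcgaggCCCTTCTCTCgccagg
RPL10A, chr6:35468376-35468415, plus strand: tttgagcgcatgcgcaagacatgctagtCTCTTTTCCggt
RPS12, chr6:132814544-132814583, plus strand: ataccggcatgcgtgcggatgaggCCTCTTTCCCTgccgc
RPS29, chr14:49598696-49598735, minus strand: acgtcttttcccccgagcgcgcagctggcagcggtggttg
RPS27L, chr15:63157463-63157502, minus strand: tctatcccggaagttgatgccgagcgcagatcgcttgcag
Of the 65 members with an entry in this table, 58 (89.2%) held such a run at 1 or more annotated starts, against 31.7% of all 27305 genes in it. The share was 27.5% for 51 ribosome biogenesis factors and 30.4% for 69 mitochondrial ribosomal protein genes, whose mRNAs are not of the TOP class. The 7 members without a run were RPL6, RPL10L, RPL17, RPL27, RPS4X, RPS27L and RPS29. A run at an annotated start is a description of that sequence, and its absence says only that these letters do not lie in the window searched.

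Some member rows held almost no counts. A total of 10 members stayed under 100 counts in every library, and the other 72 members had between 422 and 48819. RPS9, RPS18, RPS25 and RPL7A never exceeded 3 counts in a library, although their proteins are core parts of the ribosome. For each of these 4 genes the table carries 1 to 9 additional rows with the same symbol and a numbered suffix. RPS10, RPL17 and RPL36A, at 65 counts or fewer, are the 3 members for which the table has a row for a read-through transcript, namely RPS10-NUDT3, RPL17-C18orf32 and RPL36A-HNRNPH2, all at 0 counts in every library. For these 7 genes the low counts are therefore not read as low expression, and how reads in shared exons were counted is not given in the sources used here. Another 2 low members are tissue-restricted paralogs: RPL10L, a retrogene known from testis, was at 0 counts in all 18 libraries, and RPL3L, known from heart and skeletal muscle, had 2 to 10 counts. The filter on low counts removed 8 members, among them RPS9, RPS18, RPS25, RPL7A, RPL36A, RPL10L and RPL3L, which left 74 members among 14281 genes tested. RPS10 and RPL17 passed it but are measured poorly, at 1.76 and 2.21 CPM (counts scaled to a common library size with TMM factors) on average.

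Total counts ranged from 17635438 to 19368343 per library. The plasma cell genes SDC1, TNFRSF17, IRF4, PRDM1, XBP1, CD38, SLAMF7, MZB1 and POU2AF1 were expressed in every library, at 41.0 CPM or more. Of 8 genes of other cell types, COL3A1 was at 0 and CD3D, CD14, LYZ and KRT18 stayed under 1 CPM in all libraries. The other 3 were CD3E, a subunit of the T cell receptor complex, at 3.26 to 11.49 CPM in every library, EPCAM at 0.313 to 1.51 CPM and COL1A1 at 0.451 to 19.5 CPM. The glucocorticoid receptor gene NR3C1 was at 13.8 to 14.9 CPM in untreated MM1R and at 89.8 to 152 CPM in untreated MM1S. In the library labelled MM1R Fer-1 and RSL3 replicate 2 it was at 50.2 CPM, against 16.9 and 15.3 CPM in the other libraries of the group, and over 9 genes that separate the lines this library reached 45.3% of the MM1S level, against -0.763 to 0.987% in the other MM1R libraries. These 9 genes were chosen in the same data for being far higher in MM1S than in the other MM1R libraries. The values near 0% in those MM1R libraries follow in part from that choice. In the library labelled MM1S RSL3 replicate 1, NR3C1 reached 391 CPM against 102 and 97.6, COL1A1 19.5 CPM against 0.746 and 1.23, and the TMM factor was 0.864 against 0.926 to 1.06 elsewhere.

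The members together took up 5.20 to 7.21% of all counts. In untreated MM1R the share was 5.90, 6.75 and 7.21% at passages 4, 6 and 7 (mean 6.62 ± 0.663%, SD, n = 3). With RSL3 it was 6.59, 6.80 and 6.01% (6.46 ± 0.412%), and with Fer-1 and RSL3 it was 6.25, 5.62 and 5.79% (5.89 ± 0.323%). In MM1R the treatments overlapped between untreated and RSL3 libraries, and the passages moved in different directions. In MM1S the share was 5.64, 5.39 and 5.21% without treatment at passages 16, 22 and 23 (5.41 ± 0.218%). It was 6.02, 5.56 and 5.44% with RSL3 (5.67 ± 0.306%) and 5.31, 5.72 and 5.20% with Fer-1 and RSL3 (5.41 ± 0.276%). Every untreated MM1R library lay above every untreated MM1S library, by 1.21 percentage points on average. No test was made on the summed share.

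**Figure D1:**
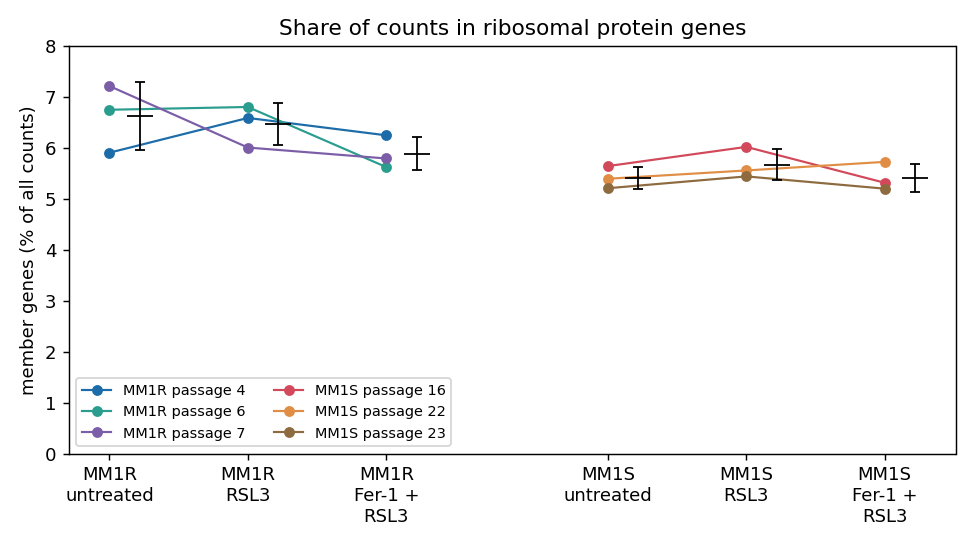
Share of all counts in the 82 member genes (y axis, percent) for each of the 18 libraries, by group. Points are libraries joined by passage and black bars give mean ± SD of 3 libraries; untreated MM1R spans 5.90 to 7.21% and untreated MM1S 5.21 to 5.64%.

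Compared within passages, the share of the members with RSL3 differed by -0.157 ± 0.963 percentage points in MM1R (SD of 3 differences, higher at 2 passages and lower at 1). In MM1S the share was higher with RSL3 at all 3 passages, by 0.257 ± 0.109 points, and by 0.197 points without passage 16. Fer-1 before RSL3 went with a lower share than RSL3 alone at all 3 passages of MM1R, by -0.579 ± 0.525 points, and at 2 of 3 passages of MM1S, by -0.259 ± 0.437 points. Without the MM1R Fer-1 and RSL3 replicate 2 library, the MM1R difference was -0.278 points, and without passage 16, the passage of MM1S RSL3 replicate 1, the MM1S difference was -0.0361 points. The MM1R difference between RSL3 and untreated was 0.369 points without passage 7 and -0.576 points without passage 4. Against untreated cells, Fer-1 with RSL3 differed by -0.736 ± 0.944 points in MM1R (-1.27 points without passage 4, -0.540 without passage 6, -0.392 without passage 7) and by -0.00178 ± 0.330 points in MM1S. Both subunits followed the same course: in MM1R the large-subunit genes held 4.10 ± 0.244% of counts with RSL3 and 3.74 ± 0.192% with Fer-1 and RSL3, and the small-subunit genes 2.36 ± 0.168% and 2.14 ± 0.136%.

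Levels differed widely between members. Per kilobase of the canonical GENCODE transcript, the median tested member was at 738 CPM per kb. Among the 5 highest were RPS27 (2676 CPM per kb), RPLP2 (2165), RPS24 (2161) and RPLP0 (1950). RPLP2 and RPLP0 belong to the stalk of the large subunit, which recruits elongation factors. The lowest were RPS10 (2.99), RPL17 (3.6), RPS27L (9.09), RPL39L (41.1) and RPL37 (77.9 CPM per kb). RPS10 and RPL17 are the poorly measured rows described above. RPS27L and RPL37 have canonical models of 6110 and 7573 bases, against a median of 895 bases for the tested members, so their values per kb depend strongly on the model. RPS27L, a p53-inducible paralog of RPS27, was at 55.6 CPM on average, and RPL39L, a paralog of RPL39 known from testis and from cancer cells, at 29.9 CPM.

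The extreme levels were concentrated in a few libraries. MM1R untreated replicate 3 (passage 7) had the highest level of 47 of the 74 tested members, and MM1S RSL3 replicate 1 (passage 16) the highest of 19. The lowest levels were in MM1S Fer-1 and RSL3 replicate 1 for 24 members, in MM1S untreated replicate 3 for 15 and in MM1S untreated replicate 2 for 10.

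**Figure D2:**
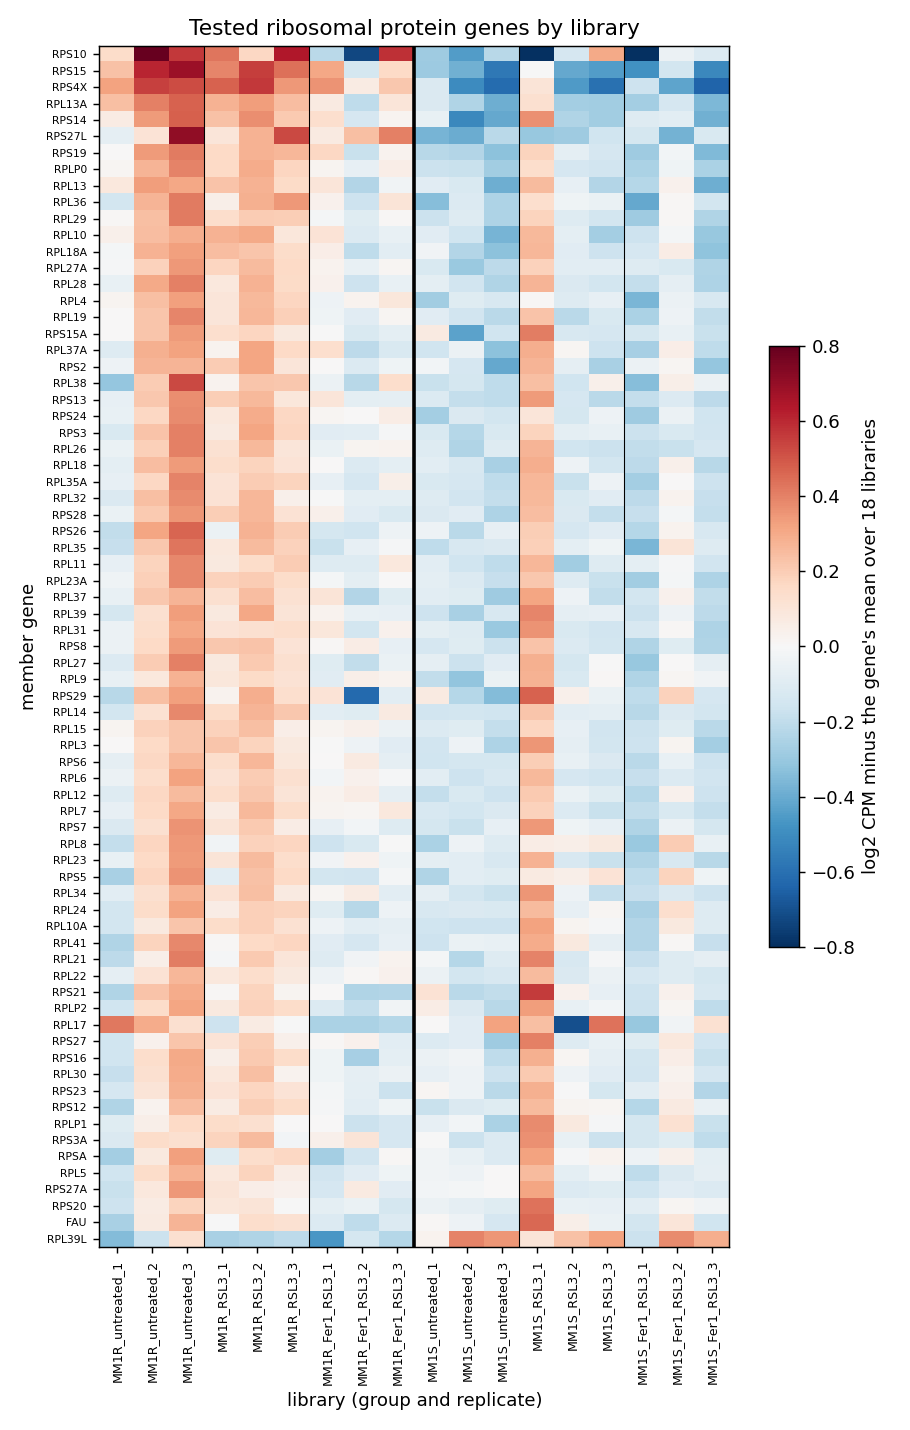
Log2 CPM of 73 of the 74 tested members (rows, ordered by their difference between the untreated lines) minus each gene's mean over the 18 libraries (columns, with the lines divided by the thick line). Colours end at 0.8 in either direction, so RPS10 in some libraries lies beyond the scale; of all 74 tested members, MM1R untreated replicate 3 holds the highest value of 47 and MM1S RSL3 replicate 1 of 19.

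The clearest difference was between the untreated lines. Of the 74 tested members, 10 (13.5%) were higher in MM1R than in MM1S at an FDR under 0.05 and 0 were lower (quasi-likelihood test of edgeR, Benjamini-Hochberg adjusted), while 5.5% of all tested genes were higher and 10.5% were called in either direction. The fitted value was higher in MM1R for 73 of 74 members, with a median log2 fold change of 0.30 against -0.01 over all tested genes. At an unadjusted p under 0.05, 46 members were higher and 1 lower (24.8% of all tested genes in either direction). The 3 libraries of each line did not overlap for 37 members, all higher in MM1R (32.4% of all tested genes in either direction).

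RPS15, a protein of the head of the small subunit (hg19 chromosome 19, 1438357 to 1440494), had the smallest FDR. It was at 895, 1161 and 1223 CPM in untreated MM1R and at 621, 581 and 512 CPM in untreated MM1S, so the groups did not overlap. The fitted difference was 0.94 on the log2 scale (standard error 0.16, FDR = 0.0014). RPL13A (chromosome 19, 49990767 to 49996314), a large-subunit protein also known as part of a complex that silences inflammatory mRNAs, was at 2070, 2317 and 2428 CPM against 1617, 1484 and 1337 CPM. Its groups were separate as well, and the fitted log2 difference was 0.62 ± 0.13 (standard error, FDR = 0.00561). RPS4X (chromosome X, 71475529 to 71497098), the small-subunit protein encoded on the X chromosome, was at 1883, 2205 and 2170 CPM against 1393, 1063 and 983 CPM, a fitted log2 difference of 0.86 ± 0.18 (standard error, FDR = 0.00575). In these 3 genes, all MM1R libraries of the untreated and RSL3 groups lay above all 9 MM1S libraries. The MM1R Fer-1 and RSL3 libraries did not keep this separation. Replicate 2 of that group was at 691, 1525 and 1577 CPM for RPS15, RPL13A and RPS4X. MM1S RSL3 replicate 1 was higher, at 758, 1916 and 1621 CPM. For RPL13A the other MM1R Fer-1 and RSL3 libraries, at 1846 and 1878 CPM, were below it too. RPS15, RPL13A and RPS4X were called in each of the 18 fits that left out 1 library.

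RPS19, the gene most often mutated in Diamond-Blackfan anaemia, was at 627, 791 and 835 CPM in untreated MM1R and at 537, 533 and 498 CPM in untreated MM1S (log2 fold change 0.52, FDR = 0.0167). RPLP0, which anchors the stalk, was at 2156, 2576 and 2809 CPM against 1894, 1884 and 1759 CPM (log2 fold change 0.45, FDR = 0.0212). The groups were separate in both genes. The other 5 members called were RPS14, RPS27L, RPL4, RPL27A and RPL29, with log2 fold changes of 0.37 to 0.62 and FDR values of 0.0274 to 0.0398; of these, RPL4, RPL27A and RPL29 were chosen after their values were seen. RPS14 is the gene of the commonly deleted region in the 5q- syndrome. RPS27L and RPS4X, both higher in MM1R, are the called members shown above that lack a pyrimidine run.

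RPL39L was the only one of the 74 tested members with a lower fitted value in MM1R. It was at 23.1, 26.1 and 32.1 CPM in untreated MM1R and at 30.05, 38.7 and 37.6 CPM in untreated MM1S, which overlap, and its log2 fold change of -0.39 (standard error 0.15) did not pass the test (FDR = 0.125). Its parent gene RPL39 was at 418, 504 and 580 CPM against 411, 385 and 422 CPM (log2 fold change 0.30, FDR = 0.174). The smallest positive fitted differences were those of FAU, a ubiquitin-like fusion gene of a small-subunit protein (0.10), and RPS20 (0.10). RPS10 had the highest fitted value (0.97, FDR = 0.101), from 13 to 65 counts per library.

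**Figure D3:**
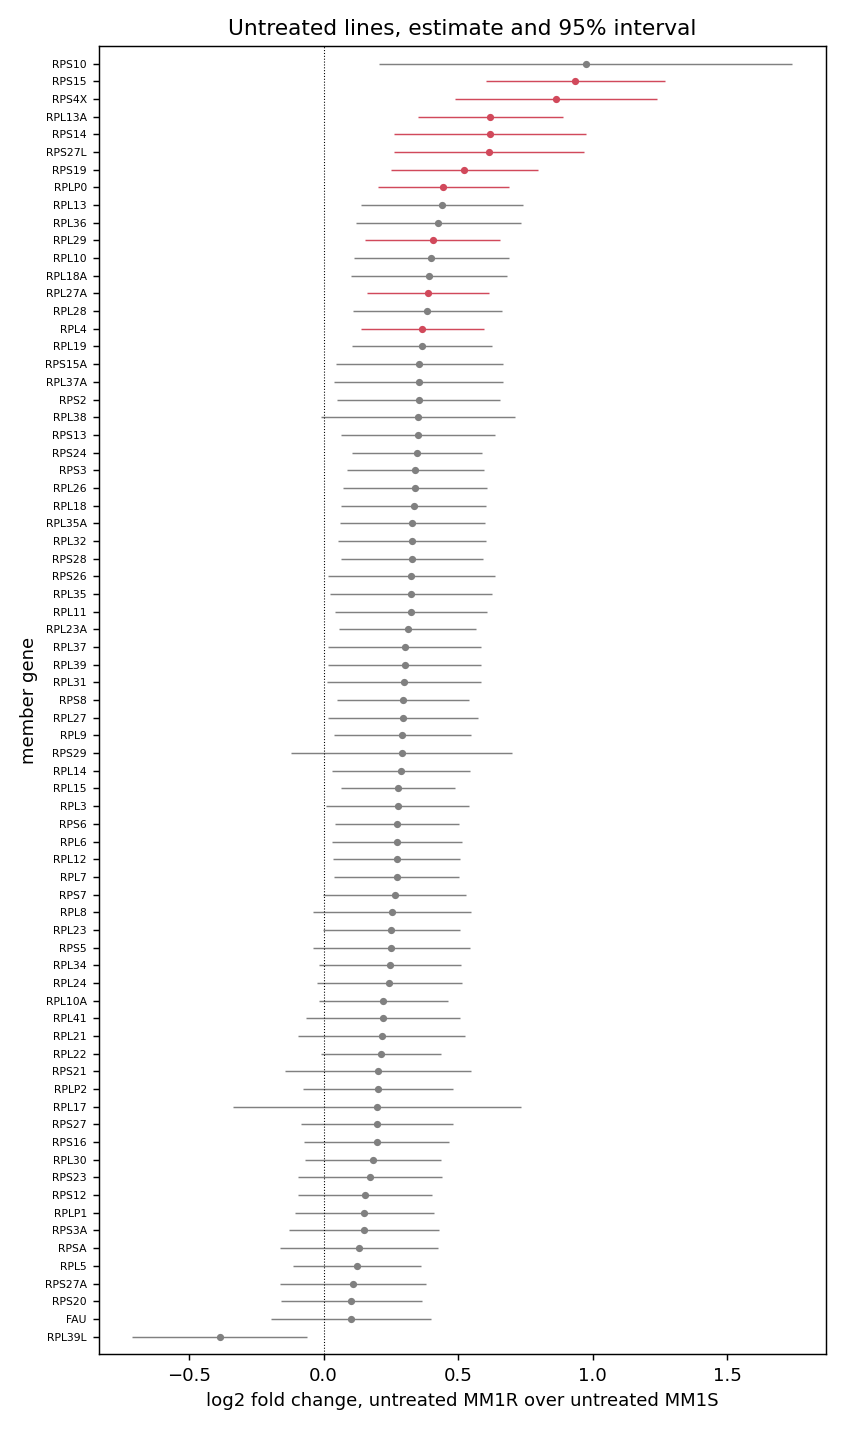
Log2 fold change between untreated MM1R and untreated MM1S (x axis) for 73 of the 74 tested members, with bars for the 95% interval of the fit; red marks the 10 members with an FDR under 0.05. Points to the right are higher in MM1R, and RPL39L (-0.39) is the only point to the left of 0.

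The count of 10 depended on single untreated libraries. It was 3 without MM1R untreated replicate 3, MM1S untreated replicate 2 or MM1S untreated replicate 3, and 4 without MM1R untreated replicate 2. It was 31 without MM1R untreated replicate 1 and 28 without MM1S RSL3 replicate 1, which enters this comparison only through the shared estimate of the spread. The share of all tested genes called in each of these fits is not given here. These counts therefore show only how far the number of calls depended on single libraries. The median log2 fold change was 0.20 without MM1R untreated replicate 3 and 0.41 without MM1R untreated replicate 1. Among the other 825 tested genes with a canonical transcript of at most 1000 bases, the median log2 fold change between the lines was 0.16, against -0.03 for 11697 longer genes. Many members are short, and the part of transcript length in the difference was not tested.

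**Figure D4:**
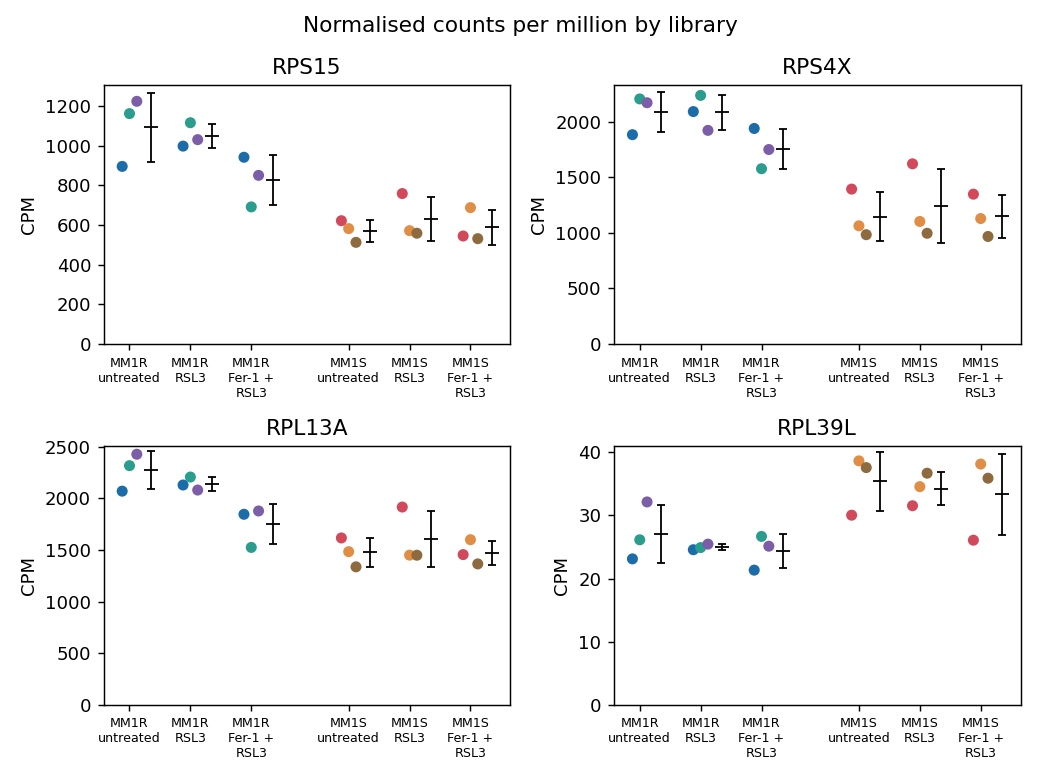
Normalised counts in CPM (y axes, from 0) of RPS15, RPS4X, RPL13A and RPL39L in each library by group, with points coloured by passage as in the plot of shares and black bars for mean ± SD of 3 libraries. RPS15 lies at 895 to 1223 CPM in untreated MM1R and at 512 to 621 CPM in untreated MM1S.

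RSL3 against untreated cells called 0 members in either line. In MM1R the fitted values were centred on 0, with a median log2 fold change of 0.00 and 38 of 74 members higher. The FDR was under 0.05 for 3.36% of all tested genes, and no member reached an unadjusted p under 0.05, against 18.5% of all genes. In 1 member (25.7% of all genes in either direction) the untreated and RSL3 libraries of MM1R did not overlap. The 95% interval of a typical member reached 0.27 on the log2 scale to either side of its estimate. The 3 highest members were RPS12 (0.12), RPL10A (0.09) and RPS3A (0.08), and the 3 lowest RPL17 (-0.32), RPS10 (-0.24) and RPL39L (-0.12).

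The flat median in MM1R covered passages that moved apart. At passage 4, 73 of 74 members were higher with RSL3, with a median log2 difference of 0.20, and at passage 6, 56 were higher, with a median of 0.04. At passage 7, 73 were lower, with a median of -0.20. Without MM1R untreated replicate 1 (passage 4) the fitted median was -0.11, and without replicate 3 (passage 7) it was 0.10.

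In MM1S, 72 of 74 members had a higher fitted value with RSL3, with a median log2 fold change of 0.18, and 0 were called (3.67% of all tested genes were). At an unadjusted p under 0.05, 3 members were higher, or 4.05% of those tested, against 19.5% of all genes. That count was 0 without MM1S RSL3 replicate 1 and at most 13 without any other single library, namely MM1S RSL3 replicate 3 (shares of all genes in these fits not given here). The libraries did not overlap for 18 members, all higher, against 24.9% of all genes. Without MM1S RSL3 replicate 1 they did not overlap for 19 members that were higher and 2 that were lower, against 36.2% of all genes. The 3 highest fitted values were those of RPS29 (0.33), RPS21 (0.29) and RPS14 (0.29). The 3 lowest were RPL39L (-0.05), RPL17 (-0.02) and RPS27A (0.06), a fusion gene of ubiquitin and a small-subunit protein. Passages 16, 22 and 23 had 73, 55 and 62 members higher, with medians of 0.36, 0.05 and 0.09. Without MM1S RSL3 replicate 1 (passage 16) the fitted median was 0.05. The median was 0.12 for the other genes with short transcripts and -0.02 for longer ones, and the part of transcript length was not tested.

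Averaged over both lines, 71 members had a higher fitted value with RSL3 and 0 were called, while 15.5% of all tested genes were. The median was 0.09, and 0.03 without MM1S RSL3 replicate 1. Only RPL10A, a large-subunit protein, reached an unadjusted p under 0.05 (30.2% of all genes did). Without MM1S RSL3 replicate 1 no member did, and without MM1R untreated replicate 3, 7 members did (shares of all genes in these fits not given here). RPL10A was at 478, 560 and 619 CPM in untreated MM1R and at 586, 606 and 576 CPM with RSL3. In MM1S it was at 475, 472 and 473 CPM without treatment and at 662, 538 and 527 CPM with RSL3. Its groups overlapped in MM1R and were separate in MM1S, and its averaged log2 fold change of 0.19 (standard error 0.08) had an FDR of 0.123. RPS29 (0.17) and RPS12 (0.17) followed. The RSL3 response was lower in MM1R than in MM1S for all 74 members in the fit, by a median of -0.18. The interaction called 0 members and 0 genes (0% of all tested), and at an unadjusted p under 0.05 it gave 0 members and 1.55% of all genes. Without MM1S RSL3 replicate 1 its median was -0.06, and without MM1R untreated replicate 3 it was -0.08.

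Fer-1 before RSL3 went with lower fitted values of the members than RSL3 alone, without a call. In MM1R all 74 members were lower, with a median log2 fold change of -0.21 against 0.01 over all genes. At an FDR under 0.05 this gave 0 members and 0% of all genes, and at an unadjusted p under 0.05, 2 members (RPS15 and RPL13A) and 6.17% of all genes. The count of 2 became 0 without MM1R Fer-1 and RSL3 replicate 2 and 22 without MM1S RSL3 replicate 1 (shares of all genes in these fits not given here). The libraries did not overlap for 54 members, all lower with Fer-1, against 13.4% of all tested genes in either direction. Without MM1R Fer-1 and RSL3 replicate 2 the count was 55, against 19.7% of all genes. RPS15 was at 997, 1115 and 1030 CPM with RSL3 and at 941, 691 and 850 CPM with Fer-1 and RSL3. Its groups were separate, and its fitted log2 difference was -0.34 ± 0.16 (standard error, FDR = 0.804). RPS10 (-0.44) and RPS29 (-0.32) were the other 2 of the 3 lowest, and RPL39L (-0.04), RPS27L (-0.07) and RPL22 (-0.10) the 3 highest. At passages 4, 6 and 7, 71, 72 and 74 members were lower, with medians of -0.14, -0.31 and -0.16. Without MM1R Fer-1 and RSL3 replicate 2, the library with levels between the lines, the fitted median was -0.18.

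In MM1S, 73 of 74 members were lower with Fer-1 and RSL3 than with RSL3, with a median of -0.16. The test called 0 members (0% of all genes), and at an unadjusted p under 0.05 it gave 0 members and 5.75% of all genes. The libraries did not overlap for 3 members, against 8.79% of all genes, and for 3 without MM1S RSL3 replicate 1, against 19.9%. The lowest fitted values were those of RPS21 (-0.29), RPL39 (-0.24) and RPL41 (-0.24), which encodes the smallest ribosomal protein. The highest were RPS27L (0.04), RPL39L (-0.04) and RPL11 (-0.06). At passages 16 and 23, 72 and 67 members were lower, with medians of -0.47 and -0.07, and at passage 22, 59 were higher, with a median of 0.07. Without MM1S RSL3 replicate 1 the fitted median was -0.04.

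Averaged over both lines, all 74 members were lower with Fer-1, with a median of -0.19. None was called, against 0.119% of all genes, and the smallest FDR of a member was 0.297. At an unadjusted p under 0.05, 27 members (36.5%) were lower and 0 higher, where 12.8% of all genes were changed and 6.2% were lower. That count was 0 without MM1S RSL3 replicate 1, 8 without MM1R Fer-1 and RSL3 replicate 2, and 48 with passage as a block. It was 2 without MM1R RSL3 replicate 2, 3 without MM1S Fer-1 and RSL3 replicate 1, 6 without MM1S Fer-1 and RSL3 replicate 3, and 43 to 48 without MM1R untreated replicate 1, MM1S Fer-1 and RSL3 replicate 2 or MM1S RSL3 replicate 3. For these other fits, with the block or without 1 library, the share of all genes is not given here. Their counts are therefore not read as a result about the members. RPS10 (-0.29), RPS29 (-0.27) and RPS21 (-0.26) had the lowest averaged values, and RPS27L (-0.01), RPL39L (-0.04) and RPL11 (-0.12) the highest. The median of the other genes with short transcripts was -0.11, and that of longer genes 0.01. The part of transcript length in the lower values was not tested.

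**Figure D5:**
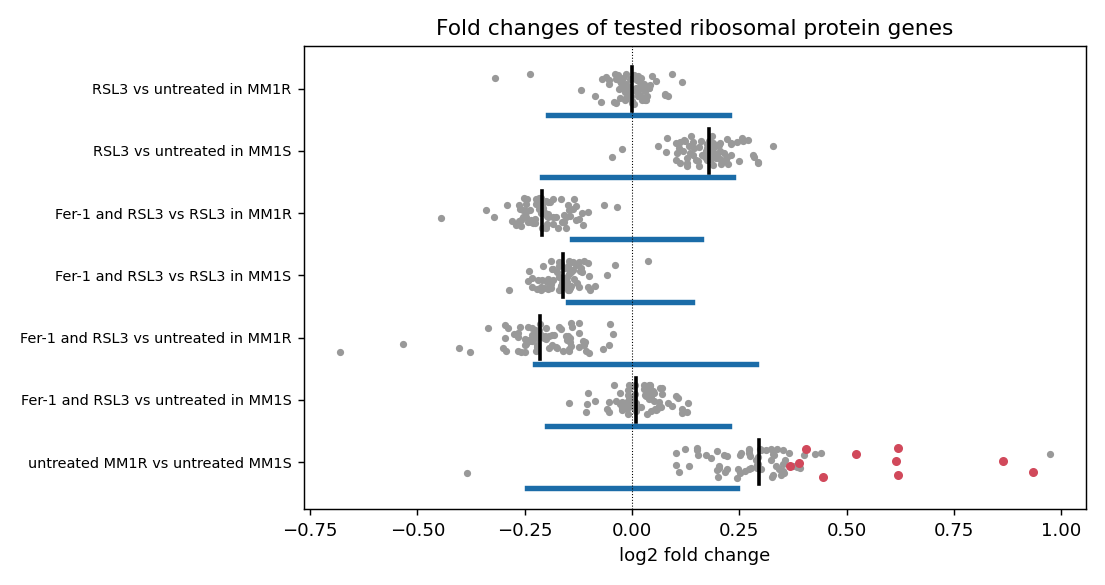
Log2 fold changes (x axis) of the 74 tested members in 7 comparisons (rows); each point is a gene, red points have an FDR under 0.05, black lines are the members' medians and blue bars span the middle 50% of all tested genes. Called members occur only between the untreated lines, where the median is 0.30; with Fer-1 and RSL3 against RSL3 the medians are -0.21 in MM1R and -0.16 in MM1S.

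Fer-1 and RSL3 against untreated cells called 0 members in MM1R (9.22% of all genes), where all 74 had a lower fitted value with a median of -0.21. At an unadjusted p under 0.05, 6 members were lower (24.6% of all genes), and the libraries did not overlap for 4 (30.6%). At passage 4, 59 members were higher with Fer-1 and RSL3, with a median of 0.06, while at passages 6 and 7, 71 and 73 were lower, with medians of -0.29 and -0.36. Without MM1R Fer-1 and RSL3 replicate 2 the fitted median was -0.19, no member reached an unadjusted p under 0.05, and 5 did not overlap (37.9% of all genes). The count at an unadjusted p under 0.05 was 1 without MM1R untreated replicate 2 or 3, 17 without MM1S RSL3 replicate 1 and 49 without MM1R untreated replicate 1. In the fits without MM1S RSL3 replicate 1 and without MM1R untreated replicate 1, 1 and 2 members were called. Shares of all genes in the fits without an untreated library or MM1S RSL3 replicate 1 are not given here. Their counts are therefore not read as a result about the members. RPL13A came nearest, at 2070, 2317 and 2428 CPM without treatment and 1846, 1525 and 1878 CPM with Fer-1 and RSL3 (log2 fold change -0.38, standard error 0.13, FDR = 0.0742), and its groups were separate. With passage as a block, RPL13A was the 1 member called. In MM1S the median was 0.01, with 47 members higher and 27 lower, 0 called (4.61% of all genes), 0 at an unadjusted p under 0.05 (18.8%) and 3 without overlap (28.3%). At passage 16, 69 members were lower, and at passages 22 and 23, 68 and 43 were higher. These comparisons share libraries with those above.

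The fitted values of the 74 members in the lines, which share no library, correlated at a Pearson r of 0.459 (Spearman rho 0.271) for RSL3 against untreated. Without RPS10, RPL17, RPL39L and RPS27L, the 4 members with low counts, r was 0.272 over 70 members. For Fer-1 and RSL3 against RSL3 the values were 0.129 and -0.0908. These are correlations across genes, which are not independent replicates.

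The extraribosomal and paralogous members were considered apart. RPL5 and RPL11, which bind 5S rRNA and restrain MDM2 when ribosome assembly fails, were not called in any comparison. RPL5 was at 356, 441 and 483 CPM in untreated MM1R and at 422, 449 and 413 CPM with RSL3, and at 390, 386 and 398 CPM and 474, 377 and 390 CPM in MM1S. The groups overlapped in both lines. RPL11 was at 929, 1103 and 1271 CPM and 1028, 1080 and 1123 CPM in MM1R, and at 918, 874 and 846 CPM and 1171, 804 and 906 CPM in MM1S, again with overlap. The averaged log2 fold changes were 0.04 for RPL5 and 0.05 for RPL11, both with a standard error of 0.08 to 0.09. Among the stalk genes and those with other names, RPLP0, RPLP1, RPLP2, RPSA and FAU had averaged values between 0.07 and 0.16 with RSL3, and 0 of 5 were called. RPLP1 was the highest of these at 0.16 (FDR = 0.222). RPS27L, whose parent gene RPS27 encodes a zinc finger protein of the small subunit, was at 51.5, 58.4 and 88.6 CPM in untreated MM1R and at 57.9, 65.7 and 78.0 CPM with RSL3. In MM1S it was at 41.8, 41.2 and 46.6 CPM and at 43.97, 44.5 and 48.6 CPM. These groups overlapped in both lines.

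Other genes of protein synthesis were counted in fixed lists, in the comparison of RSL3 with untreated cells averaged over both lines. Of 18 tested translation genes of the TOP class outside the ribosome, 1 (5.56%) was called higher and 0 lower, against 15.5% of all tested genes called in either direction, with a median of 0.06. The gene called was EEF1D, a subunit of the elongation factor complex (0.69, FDR = 0.0455), at only 0.777 to 2.90 CPM in all libraries. A row at this level is measured poorly, as described above for RPS10 and RPL17, so the call is not read as a change in expression. EEF1D was not called without MM1S RSL3 replicate 1 (0.63, FDR = 0.104). TPT1 had the next smallest FDR among those with positive values (0.22, FDR = 0.250). Among those with negative values, EIF4B (-0.12, FDR = 0.265) and EIF3L (-0.03, FDR = 0.782) had the smallest FDR. Between the untreated lines 3 of these 18 genes (16.7%, against 10.5% of all tested genes) were higher in MM1R and 0 lower, with a median of 0.17: EEF2, the factor of ribosome translocation (0.50), RACK1, a scaffold on the small subunit (0.39), and EIF3L (0.32). With Fer-1 and RSL3 against RSL3, 17 of 18 had lower fitted values, with a median of -0.13.

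Of 59 tested ribosome biogenesis factors, 4 were called higher and 2 lower with RSL3 (10.2%, against 15.5% of all tested genes), and 46 had lower fitted values, with a median of -0.17. SBDS, which frees new large subunits from EIF6, rose by 0.62 (FDR = 0.00383), and TAF1D, a component of the RNA polymerase I machinery, by 0.36 (FDR = 0.0417). RRP12 and POLR1E were the others called higher (0.37 and 0.79). POLR1C, a subunit of RNA polymerases I and III, fell by 0.41 (FDR = 0.0379) and NOP16 fell by 0.48 (FDR = 0.0411). SBDS was at 46.5 to 58.5 CPM in the untreated libraries and at 65.1 to 116 CPM with RSL3, so the treatments did not overlap. Without MM1S RSL3 replicate 1, SBDS (0.48, FDR = 0.00359) was the 1 factor still called, 43 had lower fitted values and the median was -0.10, while 11.9% of all tested genes were called. POLR1E was at 138 CPM in that library against 48.6 and 56.7 CPM in the other MM1S RSL3 libraries, and its fitted value was 0.49 without it (FDR = 0.127). Without MM1R Fer-1 and RSL3 replicate 2, 1 factor was called higher and 2 lower (share of all genes in this fit not given here).

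Of 76 tested mitochondrial ribosomal protein genes, 2 were called higher and 4 lower with RSL3 (7.89%, against 15.5% of all tested genes), with a median of -0.03. MRPL18 (0.82, FDR = 0.0119) and MRPL10 (0.40, FDR = 0.0129) rose, and MRPL34 (-0.41, FDR = 0.00946) and MRPL32 (-0.38, FDR = 0.0228) fell. MRPL36 and MRPL44 were the others called lower. MRPL18 was at 197 CPM in MM1S RSL3 replicate 1 and at 73.3 and 78.4 CPM in the other libraries of that group. Without this library MRPL18 (0.52, FDR = 0.00733), MRPL10, MRPL34 and MRPL32 were still called and MRPL36 (FDR = 0.0610) and MRPL44 (FDR = 0.0928) were not. Between the untreated lines, 60 of the 76 had higher fitted values in MM1R, with a median of 0.11, and 3 (3.95%, against 10.5% of all tested genes) were called, all higher.

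Some marker genes moved in the same comparison. Of the 9 plasma cell genes, SDC1 and TNFRSF17 were lower with RSL3 averaged over both lines (-0.45 and -0.53) and CD38 was higher (0.54). These calls are 33.3% of the 9 genes, against 15.5% of all tested genes. Of the 8 genes of other cell types, 4 could be tested. KRT18 (2.03) and COL1A1 (1.94), 50% of these 4, were higher, at 0.968 CPM or less for KRT18. Neither was called without MM1S RSL3 replicate 1 (KRT18 1.78, FDR = 0.0590; COL1A1 0.53, FDR = 0.312), while SDC1, TNFRSF17 and CD38 were. Between the untreated lines CD38 was lower in MM1R (-1.06) and KRT18 higher, where 10.5% of all tested genes were called. The part of these genes in the values of the members was not tested. In bulk RNA, a change in the number of cells of a kind and a change of RNA per cell cannot be told apart.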

How the data were processed

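RNA of 18 libraries (6 groups of 3) was read in pairs of 50 bases on a BGISEQ-500. Per the labels, the authors used FastQC 0.11.5, STAR 2.7.3a and DESeq2 with build hg19, and they deposited raw counts per gene for 43735 symbols. A second table deposited by the authors gives normalized signal, that is, counts over a library-wise size factor. The tool, annotation and strand setting of the counting step are not given in the sources used here.

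The raw counts were analysed in R 4.3.3 with edgeR 4.0.16: filterByExpr (minimum count 10), TMM scaling, 1 quasi-likelihood model of 6 group means (12 residual degrees of freedom), and Benjamini-Hochberg adjustment over 14281 genes. A member was called at an FDR under 0.05. The steps were tested on simulated data. CPM is TMM-scaled. Transcript lengths and hg19 positions came from GENCODE v44lift37 by symbol (all 82 members; 88.2% of tested genes had a length), and start regions from RefSeq.

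The members, lists and tests were chosen with earlier results of these data known. Genes were named by rank of fold change, FDR and level per kb, with all members of the small lists and those removed by the filter. Some items are not reported here by name. Further genes named to complete a count were chosen after their values were seen. Replicate numbers are passages, which pair libraries within a line: deviations from group means of libraries of 1 passage correlated at a median of 0.250 in MM1R (0.0338 to 0.516) and 0.416 in MM1S (0.216 to 0.681). Replicate libraries differed beyond sampling noise (chi-square per degree of freedom 7.85 to 162). Alternatives were RLE and upper-quartile scaling, DESeq2 1.42.0, other filters and thresholds, a passage block (8 residual degrees of freedom), only the groups compared, other denominators of the share, and leaving out each library. The lists of short and long transcripts were chosen after seeing the data.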

Additional observations from a re-analysis of the deposited data

How the results depend on the processing

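In most alternatives, whether any member was called in a comparison did not change. The medians depended on single libraries, as given above. For RSL3 against untreated in MM1R, the sign of the median depended on which untreated library was left out. With passage as a replicate block, 1 member (RPL13A) was called for Fer-1 and RSL3 against untreated in MM1R, where 0 were called without it; DESeq2 and an FDR under 0.1 also gave 1, and leaving out 1 library gave 0 to 2. In every comparison of treatments apart from this one, DESeq2 also called 0 members. The block changed no other count of calls, and it could not be fitted to the untreated lines, which share no passage. Between the untreated lines DESeq2 and an FDR under 0.1 each called 19 members, a log2 fold change over 1 called 0, and leaving out 1 library gave 3 to 31. The share of all tested genes called at any of these settings is not given here. The counts are therefore not read as a result about the members. With the effective library size as denominator, the share of members in MM1S was 0.69 ± 0.74 percentage points higher with RSL3 (SD of 3 differences). The difference was 1.54 points at passage 16, the passage of MM1S RSL3 replicate 1, and 0.199 and 0.331 points at passages 22 and 23. The cause was not tested for any of these. Without 1 library the sign turned in some fits for members with small values, as follows. For the untreated lines FAU ranged from -0.029 to 0.23. For RSL3 against untreated, MM1R gave -0.0027 to 0.18 for RPL10A, -0.0035 to 0.24 for RPS12, -0.23 to 0.020 for RPL39L and -0.44 to 0.051 for RPS10. MM1S gave -0.26 to 0.25 for RPL17, -0.16 to 0.023 for RPL39L and -0.086 to 0.13 for RPS27A, and the average gave -0.20 to 0.10 for RPS10. For Fer-1 and RSL3 against RSL3, RPL39L ranged from -0.10 to 0.054 in MM1R, from -0.15 to 0.11 in MM1S and from -0.090 to 0.039 in the average. RPS27L ranged from -0.16 to 0.040, -0.015 to 0.11 and -0.063 to 0.042 in the same order, and RPL11 from -0.17 to 0.11 in MM1S. Between the untreated lines RPL4 was called in 9 of 18 such fits, RPL29 in 12, RPS14, RPS19, RPS27L, RPL27A and RPLP0 in 14 each, and RPS15, RPL13A and RPS4X in 18. Of the members, 72 had 422 or more counts in every library, while RPS10 and RPL17 rest on 13 to 65 counts.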
